A study of Mus musculus with 18 samples.

Results

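The genes described here are 42 mouse genes that copy DNA or make its building blocks, taken by symbol from a list of replication and nucleotide synthesis genes. All 42 were found in the deposited table of 26538 genes, and all 42 were among the 12587 genes that averaged at least 0.5 FPKM and were tested. RNA was sequenced from 18 tumours that had not themselves been ablated, the design text calling them side tumours of treated mice. There were 6 groups of 3 tumours, named cryo-thermal therapy plus anti-PD-1, radiofrequency ablation plus anti-PD-1, cryoablation plus anti-PD-1, cryo-thermal therapy, radiofrequency ablation and cryoablation. Cryoablation destroys tissue by freezing, radiofrequency ablation (RFA) destroys it by heating, and cryo-thermal therapy (CTT) freezes and then heats it, while anti-PD-1 is an antibody that blocks an inhibitory receptor of T cells. Every group carried an ablation, so each comparison is between kinds of ablation or between ablation with and without the antibody, and tumours of mice with no ablation were not analysed here. The labels used here give no strain, tumour line, age, sex or day of collection, and do not say that the replicates came from separate mice, so the spread that the p-values measure may be partly technical. The tissue is labelled only as tumour. Over the 18 tumours 9 epithelial and carcinoma markers summed to between 2.55 and 10.9 FPKM. Among them Krt8 ranged from 0.0143 to 0.971 FPKM and Cdh1 from 1.75 to 5.19 FPKM. The proliferation marker Mki67 ranged from 40.1 to 62.8 FPKM.

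DNA replication starts when the origin recognition complex, with Cdc6 and Cdt1, loads the ring of Mcm2 to Mcm7 onto DNA in a step called licensing. In S phase Cdc45, the GINS complex and Mcm10 turn that ring into an active helicase, RPA coats the exposed single strands, DNA polymerase alpha and its primase lay down primers, and polymerases delta and epsilon extend them on the sliding clamp PCNA, which replication factor C loads. Fen1 and Lig1 then trim and seal the pieces of the lagging strand. Ribonucleotide reductase (Rrm1 and Rrm2), thymidylate synthase (Tyms) and thymidine kinase (Tk1) supply deoxynucleotides, and Cad, Umps and Ctps build the pyrimidines upstream of them. Many of these genes are known targets of the E2F factors, which switch on transcription at the entry into S phase, so their messages follow the share of cells that are cycling in a tissue. The same pathway is used by tumour cells and by dividing immune cells, and bulk tumour RNA holds both.

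Promoter sequences are shown for 6 members. Mcm6, Mcm5, Cdc6 and Pola1 were chosen because they carry a sequence feature found in some of the members. Cad and Rpa3 were chosen because these were the members that were not lowest in 1 tumour described further on. RefSeq promoters of the build GRCm38.p6, which run from 250 bases before to 50 bases after a gene's start, were matched for 35 of the 42 members. They were searched on both strands for the E2F-type words TTTCCCGC, TTTGGCGC, TTTCGCGC and TTTGCCGC. Counted by gene, a word was present in a promoter of 13 of the 35 members (37.1%). It was present in 471 of 10050 genes tested that had a promoter (4.69%) and in 704 of all 27025 genes with a promoter (2.6%). The 13 members were Orc1, Cdc6, Cdt1, Mcm3, Mcm5, Mcm6, Mcm7, Gins3, Rfc3, Pola1, Pold1, Pole2 and Lig1. A match is a description of letters, not a bound site, and the absence of a match says only that these letters are not in the window. The 160 bases before the start are printed 5′ to 3′ along each gene's strand, with matches in capitals. In Mcm6, the member of the licensing helicase with the highest level, matches begin 110, 106 and 47 bases before the start and the first 2 overlap. In Mcm5 they begin 153 and 149 bases before the start and overlap, and Cdc6 and Pola1 have 1 match each, beginning 138 bases before the start in both. Cad and Rpa3 have no match.
Mcm6, chr1:128359706-128359865, minus strand: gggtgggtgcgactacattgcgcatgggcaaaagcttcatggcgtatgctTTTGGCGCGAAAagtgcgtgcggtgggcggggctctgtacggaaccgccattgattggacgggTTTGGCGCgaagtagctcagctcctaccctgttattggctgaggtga
Mcm5, chr8:75109349-75109508, plus strand: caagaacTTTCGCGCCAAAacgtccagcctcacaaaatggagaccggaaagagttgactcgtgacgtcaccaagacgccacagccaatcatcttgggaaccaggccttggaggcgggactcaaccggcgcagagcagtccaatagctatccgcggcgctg
Cdc6, chr11:98907991-98908150, plus strand: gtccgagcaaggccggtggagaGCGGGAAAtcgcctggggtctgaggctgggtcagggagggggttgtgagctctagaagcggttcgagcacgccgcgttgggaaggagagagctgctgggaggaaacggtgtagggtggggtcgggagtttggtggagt
Pola1, chrX:93632156-93632315, minus strand: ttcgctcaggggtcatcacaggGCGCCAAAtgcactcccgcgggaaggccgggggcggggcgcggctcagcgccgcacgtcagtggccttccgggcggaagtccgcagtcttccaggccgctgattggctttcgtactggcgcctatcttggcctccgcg
Cad, chr5:31054620-31054779, plus strand: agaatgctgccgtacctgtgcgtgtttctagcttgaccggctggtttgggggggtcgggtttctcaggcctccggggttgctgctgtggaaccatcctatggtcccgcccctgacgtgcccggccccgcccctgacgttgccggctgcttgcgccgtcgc
Rpa3, chr6:8259142-8259301, minus strand: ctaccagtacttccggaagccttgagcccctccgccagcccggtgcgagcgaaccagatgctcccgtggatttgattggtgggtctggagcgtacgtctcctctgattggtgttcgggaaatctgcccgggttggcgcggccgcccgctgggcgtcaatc

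Levels differed between genes far more than between tumours. Mean FPKM, a read density scaled per length and per library by the authors, ran from 2.83 for Orc1, a subunit of the origin recognition complex, to 337 for Pcna, the sliding clamp. By contrast, the highest tumour of the 18 exceeded the lowest by a median of 1.67-fold per member (range 1.23-fold for Rfc1 to 2.15-fold for Cdc6). The 10 licensing genes ran from Orc1 to Mcm6 at 96.6 FPKM, and the 6 helicase activation genes from Mcm10 at 8.81 to Gins2 at 49.8 FPKM. The 6 clamp and clamp loader genes ran from Rfc1 at 17.5 FPKM to Pcna, and the 8 polymerase and primase genes from Pole at 15.2 to Pold2 at 45.6 FPKM. Among the 5 genes of single-strand binding and strand joining, Fen1 was lowest at 22.8 FPKM and Rpa3 highest at 63.6 FPKM. The 4 genes of deoxynucleotide supply ran from Tyms at 12.5 to Rrm1 at 72.3 FPKM, and the 3 pyrimidine synthesis genes from Umps at 24.6 to Ctps at 39.6 FPKM.

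Depth was even across the libraries. Of 28863 low values in 2943 genes, 99.72% were whole multiples, within 0.05 fragments, of what 1 fragment was worth, and the relative depth this gave ran from 0.983 to 1.02 over the 18 tumours, although the absolute depth is unknown. FPKM summed to between 408042 and 442383 per tumour, and Pearson's r across genes was 0.972 to 0.995 within groups and 0.955 to 0.993 between them. One tumour stood apart for the genes described here.

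Replicate 3 of RFA alone had the lowest value of the 18 tumours for 40 of the 42 members. It was the lowest tumour for 11.3% of all genes tested, the largest such share, which was 2.22% to 10.8% in the other tumours. The exceptions were Cad, lowest in replicate 2 of the same group, and Rpa3. On the log2(FPKM + 1) scale the members averaged 4.63 in that tumour, against 4.95 to 5.26 in the other 17. Against the mean of the other 2 RFA tumours, 41 of 42 members were lower there, with a median difference of -0.42 (range -0.62 for Cdc6 to 0.02 for Cad), while 50.2% of all genes tested were lower and their median difference was 0.00. Every role took part. The median difference was -0.44 for licensing, -0.52 for helicase activation, -0.39 for the clamp and its loader, -0.38 for polymerases and primase, -0.34 for single-strand binding and strand joining, -0.45 for deoxynucleotide supply and -0.26 for pyrimidine synthesis. The 13 members with an E2F-type word had a median difference of -0.46 and the 22 with a promoter and no word -0.42. Mitosis genes, a list of 20 including Mki67 and the topoisomerase Top2a, were also lower in 20 of 20, with a median difference of -0.40. Top2a had 93.8 FPKM in replicate 3, against 124.6 and 148 FPKM in replicates 1 and 2.

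Several lists of markers of other cells were higher in that tumour than in the other 2 RFA tumours. All 9 fibroblast markers were above both other RFA tumours, and their summed level was 2153 FPKM, against 1324 and 1422 FPKM in replicates 1 and 2 and 757 to 2037 FPKM in all other tumours. The 5 erythroid markers summed to 992 FPKM, against 386 and 36.6 FPKM in replicates 1 and 2 and 23.6 to 772 FPKM in all other tumours. They summed to 750, 557 and 772 FPKM in the 3 tumours of cryoablation alone, where the members averaged 5.06, 4.95 and 5.14 on the log2(FPKM + 1) scale. The 7 endothelial markers summed to 46.2 FPKM, against 19.9 and 18.3 FPKM in replicates 1 and 2 and 18.3 to 47.1 FPKM in all other tumours. The 7 adipocyte markers summed to 77.4 FPKM, against 16.1 and 19.5 FPKM in replicates 1 and 2 and 11.7 to 72.0 FPKM in all other tumours. Of the 9 epithelial markers 7 were above both, with Cldn7 listed at 0, and they summed to 10.9 FPKM, against 3.50 and 3.92 FPKM in replicates 1 and 2 and 2.55 to 10.7 FPKM in all other tumours. Macrophage markers were above both in 5 of 10, with sums of 1820 FPKM, against 1162 and 1834 FPKM. T cell markers were above both in 1 of 10, with sums of 7.01 FPKM, against 5.53 and 13.0 FPKM, and skeletal muscle markers in 0 of 10, with sums of 7.85 FPKM, against 4.25 and 30.8 FPKM. In hair follicle and keratinocyte markers, 10 of 17 were above both, and Krt33a, Krt33b, Krt85, Krt86 and Dsg4 were listed at 0. In bulk tumours a smaller share of dividing cells and less of these messages per cell cannot be told apart, and the part of the marker changes in the lower member levels was not tested. Without that tumour the highest value exceeded the lowest by a median of 1.37-fold per member (range 1.18-fold to 1.77-fold).

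**Figure D1:**
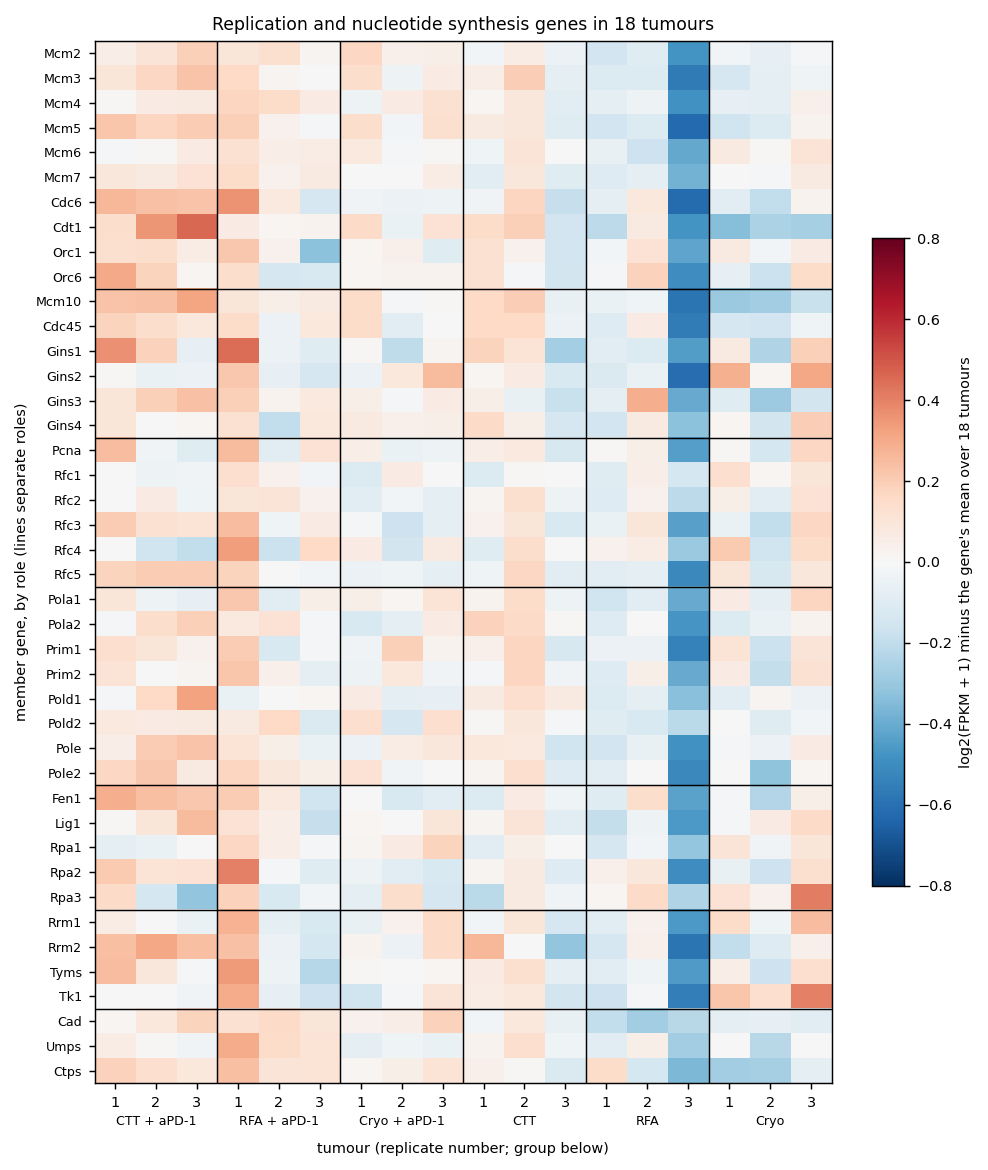
Each cell is log2(FPKM + 1) of 1 member in 1 tumour minus that gene's mean over the 18 tumours (color scale), with members in rows by role and tumours in columns by group (CTT, cryo-thermal therapy; RFA, radiofrequency ablation; Cryo, cryoablation; aPD-1, anti-PD-1). The column of RFA replicate 3 is the darkest blue in nearly every row, 40 of 42 members being lowest there.

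**Figure D2:**
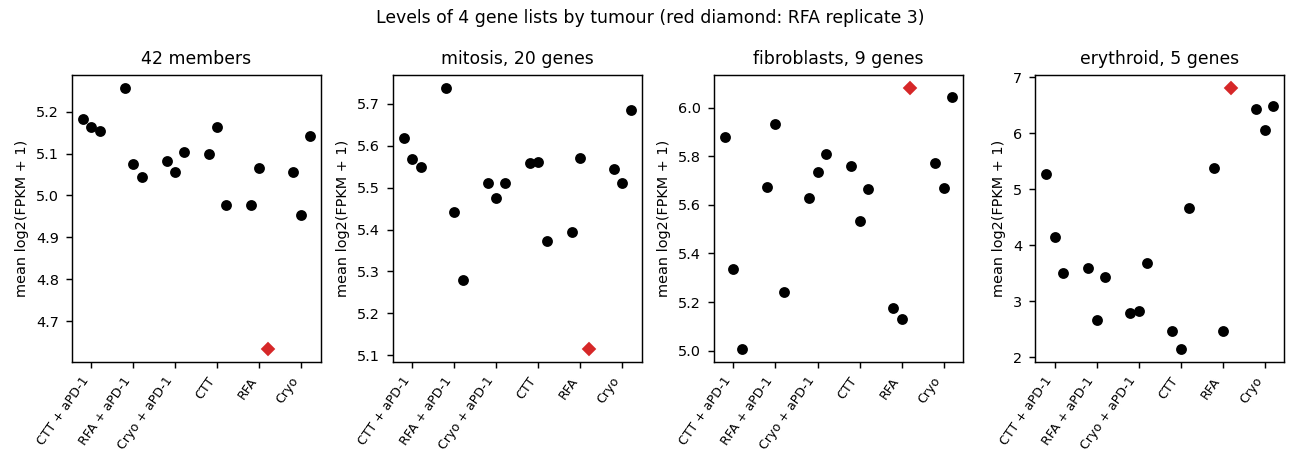
The mean log2(FPKM + 1) of the 42 members, 20 mitosis genes, 9 fibroblast markers and 5 erythroid markers is plotted for each of the 18 tumours (points) by group. RFA replicate 3 (red diamond) is the lowest tumour for the members, at 4.63, and for mitosis genes, at 5.11, and the highest for fibroblast markers, at 6.08, and for erythroid markers, at 6.82.

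The member with the highest mean of each role shows the range over the tumours. Mcm6 was 95.1, 96.8 and 101 FPKM after CTT plus anti-PD-1, 105, 99.8 and 100.5 after RFA plus anti-PD-1, 102, 95.8 and 97.0 after cryoablation plus anti-PD-1, 94.1, 104 and 95.9 after CTT alone, 92.2, 85.8 and 72.2 after RFA alone and 101, 97.0 and 104 after cryoablation alone. Gins2, a subunit of GINS, was 49.7, 47.5 and 47.7 FPKM after CTT plus anti-PD-1, 57.5, 47.1 and 44.8 after RFA plus anti-PD-1, 47.8, 52.4 and 59.0 after cryoablation plus anti-PD-1, 49.8, 51.6 and 45.3 after CTT alone, 45.4, 47.5 and 32.0 after RFA alone and 60.3, 49.8 and 61.3 after cryoablation alone. Pcna was 398, 328 and 312 FPKM after CTT plus anti-PD-1, 399, 314 and 363 after RFA plus anti-PD-1, 347, 323 and 326 after cryoablation plus anti-PD-1, 347, 353 and 306 after CTT alone, 337, 345 and 246 after RFA alone and 337, 303 and 375 after cryoablation alone. In these 3 genes the lowest of the 18 values was replicate 3 of RFA alone, and the other 5 groups overlapped one another in most pairs. Pold2, the second subunit of polymerase delta, was 48.1, 47.6 and 47.9 FPKM after CTT plus anti-PD-1, 47.9, 50.9 and 41.9 after RFA plus anti-PD-1, 50.0, 41.4 and 49.9 after cryoablation plus anti-PD-1, 45.8, 48.4 and 44.9 after CTT alone, 42.4, 41.7 and 39.0 after RFA alone and 45.6, 42.5 and 44.8 after cryoablation alone. Rpa3, the smallest subunit of RPA, was 70.5, 57.2 and 50.5 FPKM after CTT plus anti-PD-1, 72.0, 58.0 and 62.1 after RFA plus anti-PD-1, 60.1, 69.8 and 57.6 after cryoablation plus anti-PD-1, 54.4, 66.3 and 62.0 after CTT alone, 64.0, 70.3 and 53.3 after RFA alone and 68.6, 64.7 and 84.3 after cryoablation alone. Rrm1, the large subunit of ribonucleotide reductase, was 75.0, 71.8 and 69.2 FPKM after CTT plus anti-PD-1, 87.1, 68.1 and 66.0 after RFA plus anti-PD-1, 68.9, 73.6 and 80.1 after cryoablation plus anti-PD-1, 70.6, 77.1 and 65.5 after CTT alone, 67.3, 73.6 and 52.1 after RFA alone and 79.7, 70.0 and 85.4 after cryoablation alone. Pold2 and Rrm1 were again lowest in replicate 3 of RFA alone, whereas Rpa3 was lowest in replicate 3 of CTT plus anti-PD-1 and highest in replicate 3 of cryoablation alone. Ctps, which makes CTP from UTP, was 44.8, 43.2 and 41.7 FPKM after CTT plus anti-PD-1, 46.6, 42.4 and 42.5 after RFA plus anti-PD-1, 39.8, 40.7 and 42.5 after cryoablation plus anti-PD-1, 40.4, 39.5 and 36.2 after CTT alone, 43.7, 35.6 and 30.4 after RFA alone and 32.3, 32.6 and 37.3 after cryoablation alone. Its lowest value was again that of replicate 3 of RFA alone, and replicates 1 and 2 of cryoablation alone were next lowest.

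Adding anti-PD-1 to RFA went with higher estimates throughout these genes, and the estimates were smaller without that 1 tumour. All 42 fold changes of RFA plus anti-PD-1 over RFA alone were above 0, against 51.7% of all genes tested, with a median of 0.24 on the log2(FPKM + 1) scale, where the median of all genes was 0.01. Only Cad passed an adjusted p of 0.05 in limma's test, in a comparison in which 0.0318% of all genes were called higher and 0.0159% lower. Cad, which encodes the enzyme of the first 3 steps of pyrimidine synthesis, had 26.9, 27.5 and 26.5 FPKM after RFA plus anti-PD-1, against 21.5, 20.2 and 21.0 FPKM after RFA alone. The groups did not overlap, and the 3 RFA values were the lowest of all 18 tumours. The log2 fold change was 0.36 (SE 0.06, 95% interval 0.23 to 0.48, adjusted p = 0.0398). Leaving out replicate 3 of RFA alone kept its size at 0.36 with an adjusted p of 0.107, and the call was also lost without any 1 of the other 5 tumours of the pair, with adjusted p-values of 0.0809 to 0.183.

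None of the 10 licensing genes passed, and their log2 fold changes ran from 0.07 for Orc6 to 0.37 for Mcm5, with 6 Mcm genes at 0.27 or more. Mcm2 had 56.8, 58.0 and 54.1 FPKM after RFA plus anti-PD-1, against 47.7, 49.6 and 37.9 FPKM after RFA alone, and the groups did not overlap. The log2 fold change was 0.32 (SE 0.08, adjusted p = 0.174). Mcm5 had 95.5, 85.6 and 83.2 FPKM after RFA plus anti-PD-1, against 75.3, 77.5 and 54.0 FPKM after RFA alone, again without overlap, log2 fold change 0.37 (SE 0.11, adjusted p = 0.231). For Mcm6 the log2 fold change was 0.29 (SE 0.07, adjusted p = 0.176) from values that did not overlap either. In both Mcm2 and Mcm5 replicate 3 of RFA alone was the lowest of the 6 tumours and lay further from the other 2 than these lay from the lowest antibody-treated tumour. In all, 20 members had an unadjusted p under 0.05, all higher, where 7.4% of all genes did, and 16 had groups that did not overlap, where 7.66% of all genes did. By role these 20 were 6 of 10 licensing genes, 2 of 6 of helicase activation, 2 of 6 of the clamp and loader, 5 of 8 polymerase and primase genes, 2 of 5 of single-strand binding and joining, 0 of 4 of deoxynucleotide supply and 3 of 3 of pyrimidine synthesis. Without replicate 3 of RFA alone, 0 members passed in limma, where 1 of 12582 genes was called higher and 0 lower. In that fit 7 members were higher at an unadjusted p under 0.05, where 583 genes were. Of 42 fold changes 38 were above 0, where 6545 of 12582 genes were, and the median was 0.11. The log2 fold change of Mcm2 was then 0.21, that of Mcm5 0.20 and that of Tk1, the thymidine salvage kinase, 0.11 instead of 0.27. The mitosis list had a median of 0.11 with all tumours and -0.01 without replicate 3, so without that tumour the members, but not the mitosis genes, had a median above that of all genes, a difference that was not tested.

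**Figure D3:**
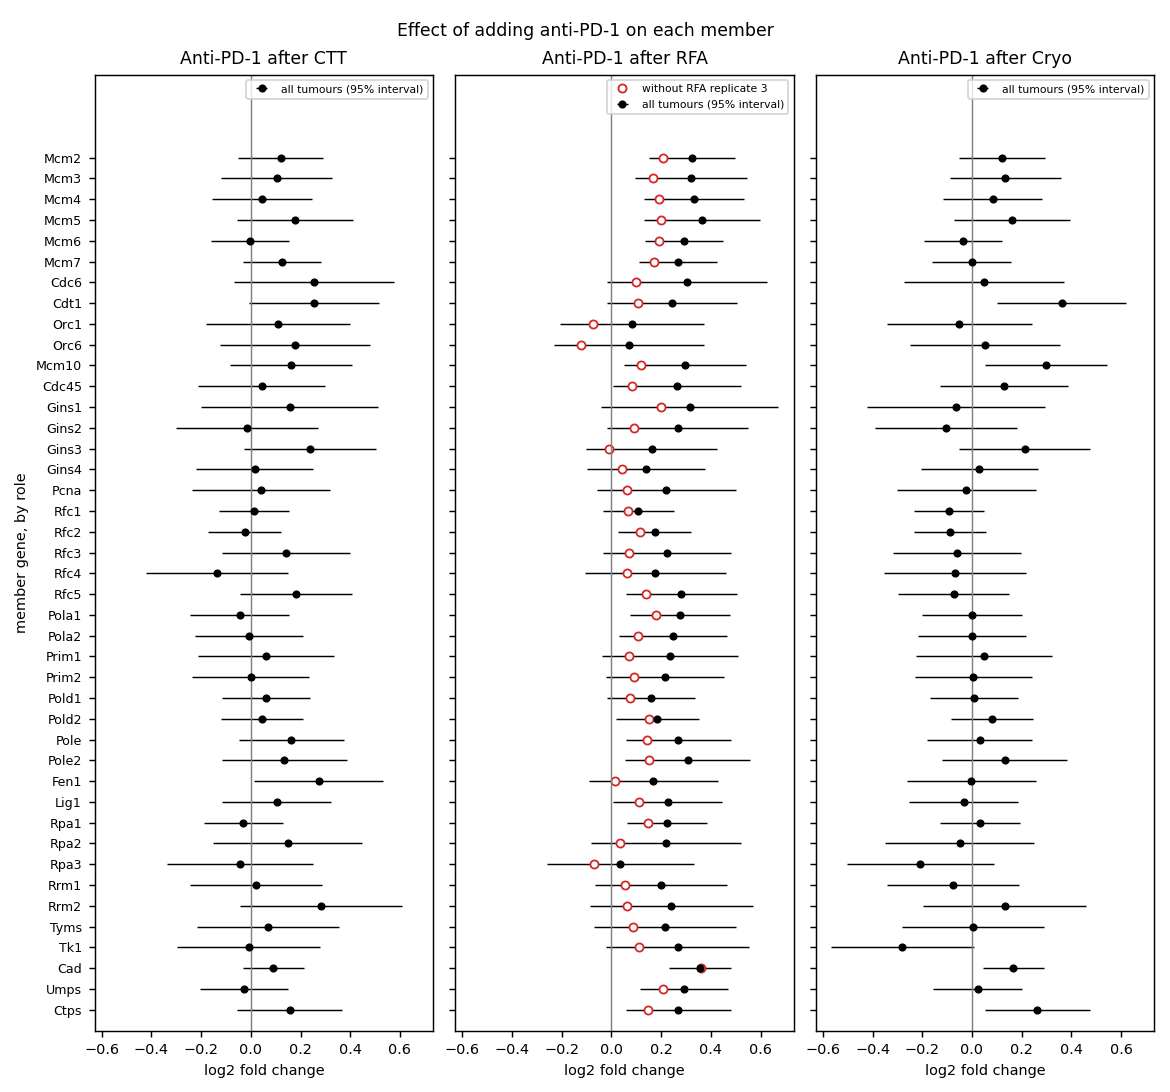
The log2 fold change of each member on adding anti-PD-1 is plotted for CTT, RFA and cryoablation (Cryo), with filled points for the fit of all tumours, bars for the 95% interval, and open red points for the fit without RFA replicate 3. After RFA all 42 filled points lie right of 0 with a median of 0.24, and the open points have a median of 0.11 and lie left of the filled ones for every member but Cad, whose points nearly coincide.

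After cryoablation, 0 of 42 members passed by limma on adding the antibody, where 1.79% of all genes were called higher and 2.53% lower, 4 members were higher at an unadjusted p under 0.05, where 10.4% of all genes were, so the share of members was no higher than that of all genes, and the median log2 fold change was 0.01. Cdt1, which delivers the Mcm ring to origins, had 42.1, 36.3 and 41.0 FPKM after cryoablation plus anti-PD-1, against 29.6, 31.4 and 31.2 FPKM after cryoablation alone, and its groups did not overlap. Its log2 fold change was 0.36 (SE 0.12, adjusted p = 0.0971). Cad had 25.3, 25.7 and 28.2 FPKM after cryoablation plus anti-PD-1, against 23.4, 23.6 and 23.1 FPKM after cryoablation alone, also without overlap, log2 fold change 0.17 (SE 0.06, adjusted p = 0.104). Ctps and Mcm10, the other members under an unadjusted p of 0.05, had log2 fold changes of 0.26 (SE 0.10, adjusted p = 0.128) and 0.30 (SE 0.12, adjusted p = 0.134). In the opposite direction Tk1 had 52.6, 58.1 and 63.2 FPKM after cryoablation plus anti-PD-1, against 68.9, 64.7 and 78.3 FPKM after cryoablation alone. The log2 fold change was -0.28 (SE 0.13, adjusted p = 0.218). Its antibody-treated tumours were all below those of cryoablation alone.

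After CTT, 0 members passed in limma, where 0.246% of all genes were called higher and 0.127% lower, 1 member was higher at an unadjusted p under 0.05, where 7.02% of all genes were, and the median was 0.08. Fen1, the flap endonuclease of the lagging strand, had 27.8, 26.9 and 26.4 FPKM after CTT plus anti-PD-1, against 20.9, 23.7 and 22.1 FPKM after CTT alone, without overlap. The log2 fold change was 0.27 (SE 0.12, adjusted p = 0.360). Cdt1 had 41.7, 48.5 and 52.3 FPKM after CTT plus anti-PD-1, against 41.9, 43.3 and 33.9 FPKM after CTT alone, and replicate 1 with the antibody fell among the tumours without it. Its log2 fold change was 0.25 (SE 0.12, adjusted p = 0.396).

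Averaged over the 3 ablations, which puts 9 tumours with anti-PD-1 against 9 without, 6 of 42 members rose and 0 fell, where 5.28% of all genes were called higher and 4.75% lower. The 6 were 3 licensing genes (Cdt1, Mcm2 and Mcm5), the helicase activator Mcm10, and the pyrimidine enzymes Cad and Ctps. Fold changes were above 0 in 39 of 42 members, against 49.5% of all genes, and their median was 0.10, against 0.00 for all genes. None of the 6 clamp and loader genes, 8 polymerase and primase genes, 5 single-strand binding and joining genes or 4 deoxynucleotide genes passed, with medians of 0.05, 0.09, 0.10 and 0.07. The medians of licensing, helicase activation and pyrimidine synthesis were 0.17, 0.14 and 0.20.

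Cad had the smallest adjusted p, with a mean log2 fold change of 0.20 (SE 0.03, adjusted p = 0.00513). It had 24.9, 26.3 and 28.1 FPKM after CTT plus anti-PD-1, against 24.4, 26.3 and 23.7 FPKM after CTT alone, which overlapped, unlike its values after RFA and cryoablation. Cdt1 followed with 0.29 (SE 0.07, adjusted p = 0.0223). It had 39.6, 38.2 and 38.5 FPKM after RFA plus anti-PD-1, against 32.4, 39.8 and 26.8 FPKM after RFA alone, where replicate 2 without the antibody was the highest of the 6 tumours. Mcm2 had a mean log2 fold change of 0.19 (SE 0.05, adjusted p = 0.0227). It had 55.2, 57.2 and 60.8 FPKM after CTT plus anti-PD-1, against 52.3, 55.3 and 51.4 FPKM after CTT alone. It had 59.8, 54.7 and 54.9 FPKM after cryoablation plus anti-PD-1, against 52.2, 50.7 and 52.5 FPKM after cryoablation alone. The groups overlapped by a small margin after CTT and not after cryoablation. Mcm10 had 10.4, 10.4 and 11.1 FPKM after CTT plus anti-PD-1, 9.39, 9.02 and 9.20 after RFA plus anti-PD-1, 9.73, 8.59 and 8.77 after cryoablation plus anti-PD-1, 9.83, 10.1 and 8.30 after CTT alone, 8.35, 8.45 and 5.47 after RFA alone and 6.89, 7.00 and 7.56 after cryoablation alone. Its mean log2 fold change was 0.25 (SE 0.07, adjusted p = 0.0289), that of Ctps 0.23 (SE 0.06, adjusted p = 0.0228) and that of Mcm5 0.23 (SE 0.06, adjusted p = 0.0319). For Mcm10 every antibody-treated tumour was above every tumour of the same ablation without it, after each of the 3 ablations. For Ctps this held after CTT and after cryoablation. After RFA it did not, as replicate 1 of RFA alone had more Ctps than 2 of the 3 tumours with the antibody.

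Over 25 alternative analyses Cad stayed under an adjusted p of 0.05 in 25, Mcm2 in 24, Cdt1 in 23, Ctps in 22, Mcm10 in 17 and Mcm5 in 14. The highest adjusted p was 0.0276 for Cad, 0.103 for Mcm2, 0.0612 for Cdt1, 0.103 for Ctps, 0.135 for Mcm10 and 0.118 for Mcm5. The same 6 members passed without the low RFA tumour, where 418 of 12582 genes were called higher and 344 lower. In that fit 36 of 42 fold changes were above 0, where 6206 of 12582 genes were, and the median was 0.06. Cad was then at 0.21 (SE 0.04, adjusted p = 0.0101), Mcm10 at 0.19 (SE 0.04, adjusted p = 0.0221) and Mcm5 at 0.18 (SE 0.04, adjusted p = 0.0290). The count moved between 3 and 11 as each tumour was left out in turn, with 3 without replicate 1 of cryoablation alone or replicate 3 of CTT alone and 11 without replicate 2 of RFA alone. Markers of skin were higher on average with the antibody, but not in each tumour. All 17 hair follicle and keratinocyte markers had a higher mean with it, their summed level being 41.3 to 383 FPKM in the 9 tumours with anti-PD-1 and 35.5 to 151 FPKM in the 9 without, with 13 markers listed at 0 in at least 1 tumour. After RFA the sums were 109, 114 and 41.3 FPKM with the antibody and 65.7, 44.9 and 151 FPKM without. All 10 T cell markers found were also higher on average, with sums of 6.18 to 42.3 FPKM with the antibody and 2.66 to 41.4 FPKM without, as were all 10 skeletal muscle markers, with sums of 15.9 to 100.2 FPKM with the antibody and 4.25 to 79.2 FPKM without, and 0 of 5 erythroid, 3 of 10 macrophage, 4 of 9 fibroblast, 6 of 7 adipocyte, 5 of 9 epithelial and 5 of 7 endothelial markers were. The 3 tumours richest in skin RNA (replicate 1 of CTT plus anti-PD-1 and replicates 1 and 2 of cryoablation plus anti-PD-1) were also left out. That left only replicate 3 in cryoablation plus anti-PD-1, and a group of 1 tumour cannot show its own spread. Fewer members passed in that fit than with all tumours. The log2 fold changes of Cdt1 and Mcm2 were then 0.33 and 0.19, and those of Mcm10, Mcm5 and Ctps in that fit are not given here. The part of the other markers in these differences was not tested.

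**Figure D4:**
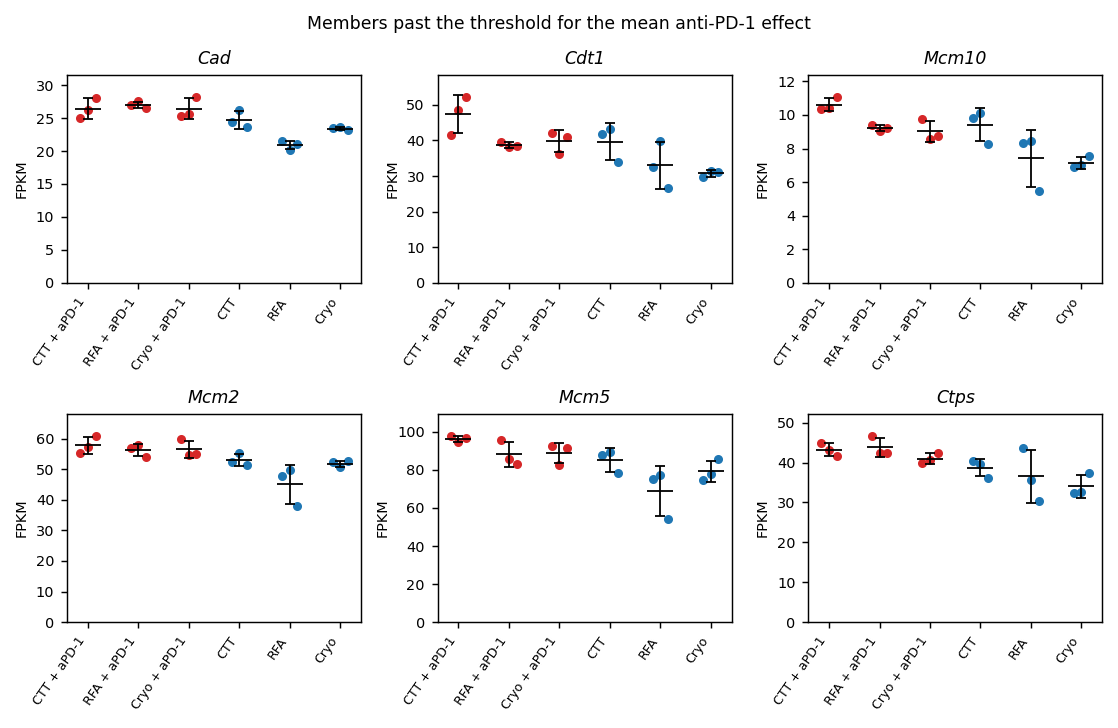
FPKM of the 6 members that passed for the mean anti-PD-1 effect is plotted for each tumour (points; red with anti-PD-1, blue without), with the mean (long bar) and SD (n = 3) of each group. Cad lies between 20.2 and 21.5 FPKM in the 3 tumours of RFA alone, below every other tumour, and Mcm10 is highest after CTT plus anti-PD-1 and lowest in 1 tumour of RFA alone.

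Cryo-thermal therapy was compared with each single ablation without the antibody and, with and without it, with the mean of both. Pooled over the antibody, 3 of 42 members were higher after CTT and 0 lower, where 10.5% of all genes were called higher and 7.29% lower, so the share of members called was below that of all genes. The 3 were Cdt1, Mcm10 and Pold1, the catalytic subunit of polymerase delta. Cdt1 ran from 33.9 to 52.3 FPKM in the 6 CTT tumours and from 26.8 to 42.1 FPKM in the other 12, with a log2 difference of 0.29 (SE 0.07, adjusted p = 0.0179). Mcm10 ran from 8.30 to 11.1 FPKM after CTT and from 5.47 to 9.73 FPKM in the others, log2 difference 0.27 (SE 0.07, adjusted p = 0.0182). Pold1 had 22.1, 25.1 and 28.3 FPKM after CTT plus anti-PD-1, 21.6, 22.4 and 22.7 after RFA plus anti-PD-1, 23.5, 21.2 and 21.4 after cryoablation plus anti-PD-1, 23.6, 24.7 and 23.6 after CTT alone, 20.7, 21.3 and 17.5 after RFA alone and 21.1, 22.8 and 21.7 after cryoablation alone. Its log2 difference was 0.19 (SE 0.05, adjusted p = 0.0216). In each of these 3 genes the CTT tumours overlapped the others. Of 42 differences, 35 were above 0, where 49.2% of all genes were, and the median was 0.08, against 0.00 for all genes. Without replicate 3 of RFA alone 3 members passed, where 1230 of 12582 genes were called higher and 738 lower. Their differences were 0.25 for Cdt1, 0.22 for Mcm10 and 0.17 for Pold1. The count was 0 without CTT replicate 2 or without CTT plus anti-PD-1 replicate 3, 1 without CTT replicate 1, and 6 without replicate 2 of RFA alone.

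T cell, macrophage and endothelial markers were higher on average in the CTT tumours. All 10 T cell markers found had a higher mean there, with a summed level of 12.8 to 42.3 FPKM in the 6 CTT tumours and 2.66 to 24.6 FPKM in the other 12, and none was at 0 in any tumour. Macrophage markers were higher in 9 of 10, with sums of 1511 to 2596 FPKM after CTT and 1099 to 1834 FPKM otherwise, and endothelial markers in 7 of 7, with sums of 25.1 to 47.1 FPKM after CTT and 18.3 to 46.2 FPKM otherwise. None of 10 skeletal muscle markers was higher, with sums of 15.9 to 79.2 FPKM after CTT and 4.25 to 100.2 FPKM otherwise, nor any of 5 erythroid markers, with sums of 23.6 to 316 FPKM after CTT and 36.6 to 992 FPKM otherwise. Of the other lists, 12 of 17 hair follicle and keratinocyte, 4 of 9 fibroblast, 4 of 7 adipocyte and 4 of 9 epithelial markers were higher. The part of these cells in the higher Cdt1, Mcm10 and Pold1 was not tested.

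Against cryoablation alone, 0 of 42 members passed after CTT alone in limma, where 8.01% of all genes were called higher and 6.96% lower, and 2 members were higher at an unadjusted p under 0.05, where 15.4% of all genes were. Mcm10 had 9.83, 10.1 and 8.30 FPKM after CTT alone, against 6.89, 7.00 and 7.56 FPKM after cryoablation alone, without overlap, log2 fold change 0.35 (SE 0.12, adjusted p = 0.0527). Cdt1 had 41.9, 43.3 and 33.9 FPKM after CTT alone, against 29.6, 31.4 and 31.2 FPKM after cryoablation alone, without overlap, log2 fold change 0.35 (SE 0.12, adjusted p = 0.0640). Both passed without CTT replicate 3, at 0.43 (adjusted p = 0.0250) for Mcm10 and 0.46 (adjusted p = 0.0199) for Cdt1. The lowest fold change was that of Tk1, which had 61.4, 62.5 and 53.0 FPKM after CTT alone, against 68.9, 64.7 and 78.3 FPKM after cryoablation alone, again without overlap, log2 fold change -0.26 (SE 0.13, adjusted p = 0.208). Groups did not overlap in 4 members that were higher and 2 that were lower, where 17.7% and 17.8% of all genes were without overlap. The median was 0.03.

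Against RFA alone, 0 of 42 members passed after CTT alone in limma, where 0.00794% of all genes were called higher, but 16 had an unadjusted p under 0.05, all higher, where 8.25% of all genes did. Cad had 24.4, 26.3 and 23.7 FPKM after CTT alone, against 21.5, 20.2 and 21.0 FPKM after RFA alone, without overlap, log2 fold change 0.23 (SE 0.06, adjusted p = 0.262). Pold1 had 23.6, 24.7 and 23.6 FPKM after CTT alone, against 20.7, 21.3 and 17.5 FPKM after RFA alone, without overlap, log2 fold change 0.27 (SE 0.08, adjusted p = 0.262). Without CTT replicate 3, Cad passed, at 0.26 (adjusted p = 0.0476). Fold changes were above 0 in 40 of 42 members, against 49.8% of all genes, with a median of 0.21. Leaving out replicate 3 of RFA alone left 3 members higher at an unadjusted p under 0.05, where 840 of 12582 genes were. It left 30 above 0, where 6085 genes were, and a median of 0.07, with Cad at 0.24 and Pold1 at 0.18.

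After RFA alone, compared with cryoablation alone, most members had lower values and none passed. By limma 0 passed, where 0.00794% of all genes were called higher and 0 lower, 13 members had an unadjusted p under 0.05, all lower, where 8.06% of all genes did, 4 fold changes were above 0, where 47.8% of all genes were, and the median was -0.15. Mcm6 had 92.2, 85.8 and 72.2 FPKM after RFA alone, against 101, 97.0 and 104 FPKM after cryoablation alone, without overlap, log2 fold change -0.27 (SE 0.07, adjusted p = 0.152). Tk1 had 52.4, 58.5 and 39.8 FPKM after RFA alone, against 68.9, 64.7 and 78.3 FPKM after cryoablation alone, also without overlap, log2 fold change -0.50 (SE 0.13, adjusted p = 0.152), the lowest fold change of the 42 members. Without replicate 3 of RFA alone, 3 members were higher and 4 lower at an unadjusted p under 0.05, where 839 and 902 of 12582 genes were. In that fit 15 fold changes were above 0, where 5985 genes were, and the median was -0.05. Mcm6 was then at -0.18 and Tk1 at -0.34, while Mcm10 was at 0.21 and Cdt1 at 0.22, and no direction was shared by all members. Tk1 was higher in all 3 tumours of cryoablation alone than in any other tumour but replicate 1 of RFA plus anti-PD-1.

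Among the 3 groups given anti-PD-1 no member passed. CTT against cryoablation had 0 members past the threshold in limma, where 3.24% of all genes were called higher and 0.818% lower, and 3 higher at an unadjusted p under 0.05, where 13.2% of all genes were. Fen1 had 27.8, 26.9 and 26.4 FPKM after CTT plus anti-PD-1, against 22.5, 20.7 and 21.2 FPKM after cryoablation plus anti-PD-1, without overlap, log2 fold change 0.32 (SE 0.12, adjusted p = 0.150). Rfc5, a clamp loader subunit, had 44.8, 45.7 and 45.5 FPKM after CTT plus anti-PD-1, against 38.1, 38.5 and 37.3 FPKM after cryoablation plus anti-PD-1, without overlap, log2 fold change 0.25 (SE 0.11, adjusted p = 0.190). The third was Pold1, and 12 members were higher without overlap, where 15.5% of all genes were. CTT against RFA had 0 past the threshold, where 0.818% of all genes were called higher and 0.493% lower, and 1 member higher at an unadjusted p under 0.05, where 9.2% of all genes were. That was Cdt1, with 41.7, 48.5 and 52.3 FPKM after CTT plus anti-PD-1, against 39.6, 38.2 and 38.5 FPKM after RFA plus anti-PD-1, without overlap, log2 fold change 0.28 (SE 0.12, adjusted p = 0.253). Pold1 had 22.1, 25.1 and 28.3 FPKM after CTT plus anti-PD-1, against 21.6, 22.4 and 22.7 FPKM after RFA plus anti-PD-1, which overlapped, log2 fold change 0.17 (SE 0.08, adjusted p = 0.315).

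RFA against cryoablation with the antibody likewise had 0 members past the threshold, in a comparison in which 0 of 12587 genes passed, and 1 member higher at an unadjusted p under 0.05, where 3.82% of all genes were. Umps, which makes UMP from orotate, had 30.3, 27.2 and 26.5 FPKM after RFA plus anti-PD-1, against 23.2, 23.9 and 23.5 FPKM after cryoablation plus anti-PD-1, without overlap, log2 fold change 0.24 (SE 0.08, adjusted p = 0.840). Rfc2, a clamp loader subunit, had 59.2, 59.6 and 56.7 FPKM after RFA plus anti-PD-1, against 52.0, 54.5 and 52.6 FPKM after cryoablation plus anti-PD-1, without overlap, log2 fold change 0.14 (SE 0.07, adjusted p = 0.840). The median over the members was 0.04, against 0.02 for all genes, and it was 0.08 for CTT against cryoablation and 0.05 for CTT against RFA.

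The size of the antibody effect was compared between ablations in the same fit. No member passed in any of the 3 differences by limma. The antibody effect after CTT minus that after cryoablation had 0 members past the threshold, where 0.111% of all genes were called higher and 0.0556% lower. It also had 0 members at an unadjusted p under 0.05, a level for which the share of all genes is not given here. The members nearest were Fen1 at 0.28 (SE 0.17, adjusted p = 0.512) and Rfc5 at 0.26 (SE 0.15, adjusted p = 0.481). The effect after CTT minus that after RFA had 6 members at an unadjusted p under 0.05, all negative, where 3.96% of all genes were negative at that level, in a comparison in which 0 of 12587 genes passed. Cad was at -0.27 (SE 0.08, adjusted p = 0.400). The effect after cryoablation minus that after RFA had 8, all negative, where 4.87% of all genes were negative at that level, again with 0 of 12587 genes past the threshold. Mcm6 was at -0.33 (SE 0.10, adjusted p = 0.626) and Tk1 at -0.55 (SE 0.19, adjusted p = 0.631). Without replicate 3 of RFA alone these numbers were 2 and 3, where 531 and 490 of 12582 genes were negative at that level. Cad was then at -0.27, Mcm6 at -0.23 and Tk1 at -0.39, so a larger effect of the antibody after RFA than after the other ablations was not shown for any member. These comparisons share tumours, as do all those above that use the same group.

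A test for any difference among the 6 groups called 5 members, Cad (adjusted p = 0.00812), Cdt1 (0.0236), Mcm10 (0.0273), Mcm2 (0.0355) and Mcm5 (0.0463), which is 5 of 42 where 18% of all genes tested were called. It called 3 of 10 licensing genes, 1 of 6 helicase activation genes and 1 of 3 pyrimidine genes, and 0 of 23 genes of the other 4 roles. It called 4 members without replicate 3 of RFA alone.

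Other genes of nucleotide synthesis and of replication were taken from lists of related genes. For the mean anti-PD-1 effect 11 of 25 other nucleotide synthesis genes rose and 1 fell, where 5.28% of all genes were called higher and 4.75% lower. The largest of these rises were in one-carbon genes of the mitochondrion, Mthfd2 at 0.58 (SE 0.10, adjusted p = 0.00647) and Shmt2 at 0.45 (SE 0.08, adjusted p = 0.00591). The estimates for Mthfd2 were 0.96 after cryoablation, 0.60 after RFA (limma adjusted p = 0.216) and 0.18 after CTT (adjusted p = 0.704). No difference between these effects passed in limma. The effect after CTT minus that after cryoablation was -0.78 (SE 0.25, adjusted p = 0.181). It was -0.42 for CTT minus RFA (adjusted p = 0.782) and 0.36 for cryoablation minus RFA (adjusted p = 0.743). The others that rose were Shmt1 and Mthfd1 of the cytosolic one-carbon cycle, Gart, Atic, Pfas and Adsl of purine synthesis, Impdh2 of guanine nucleotide synthesis, Dhodh, which acts between Cad and Umps, and Dctd, a deoxycytidylate deaminase. Ctps2, the second CTP synthase, fell, at -0.26 (SE 0.04, adjusted p = 0.00316), while its paralog Ctps rose. Of 34 other replication factors, 5 rose, namely the helicase Recql4 at 0.39 (adjusted p = 0.0237), Mtbp, Orc2, and the maintenance methylation genes Uhrf1 and Dnmt1, and 0 fell. By the same limma test 0 of 20 mitosis genes passed, with a median of 0.03 and 2 at an unadjusted p under 0.05, and 0 of 13 regulators of S-phase entry passed, with 7 higher and 1 lower at an unadjusted p under 0.05, where 14.4% of all genes were higher and 14% lower. E2f1, one of those regulators, ran from 17.4 to 24.2 FPKM over the 18 tumours, with its lowest value in replicate 3 of RFA alone. Of 6 genes of cell cycle exit tested, 1 fell, Cdkn2c, an inhibitor of Cdk4, at -0.29 (adjusted p = 0.0347).

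For CTT against cryoablation without the antibody, 6 of 25 other nucleotide synthesis genes were higher and 1 lower, where 8.01% of all genes were called higher and 6.96% lower, and 0 of the 3 pyrimidine members were called. Mthfd2 was at 1.01 (SE 0.18, adjusted p = 0.00527) and Shmt2 at 0.59 (SE 0.14, adjusted p = 0.0120), and Dctd, Gart, Atic and Shmt1 were also higher, with Ctps2 lower at -0.22 (adjusted p = 0.0303). For CTT against the mean of the other ablations 8 of 25 were higher and 0 lower, where 10.5% of all genes were called higher and 7.29% lower. Adding anti-PD-1 to cryoablation gave 2 higher, Mthfd2 at 0.96 (SE 0.18, adjusted p = 0.0181) and Shmt2 at 0.55 (SE 0.14, adjusted p = 0.0368), and 1 lower, Ctps2 at -0.40 (SE 0.06, adjusted p = 0.0113), where 1.79% of all genes were called higher and 2.53% lower. In these 3 comparisons 0, 1 and 0 of the 34 other replication factors were higher and 0, 1 and 0 lower, the higher one being Rnaseh2a, a subunit of the nuclease that removes ribonucleotides from DNA, and the lower one Orc5.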

How the data were processed

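Bulk RNA from 18 tumours was extracted with TRIzol and silica columns and made into libraries with the VAHTS Universal V6 kit, per the labels' protocols. The deposited table holds 1 FPKM value per gene and tumour, made by the authors. The submitters' processing notes list HTSeq 0.11.2. The aligner, genome build, annotation and strand setting are not given in the sources used here. FPKM is scaled within each library, so every value is relative to the rest of its library. Values were taken as log2(FPKM + 1), which understates changes of low genes, and genes with a mean of at least 0.5 FPKM over all tumours were kept. limma 3.58.1 in R 4.3.3 fitted 1 mean per group over all 18 tumours with variances that follow the mean level. The contrasts between groups and an F test over the 6 groups, 15 comparisons in all, were adjusted by Benjamini-Hochberg over 12587 genes each, 2-sided, at 0.05. The fit was tested on simulated data with 200 changed genes. Tables and figures were made with Python 3.11.15, pandas 2.3.3 and matplotlib 3.10.9.

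The members and the lists of related genes and markers were chosen with earlier results of these data known. Per-tumour values are given for members past the threshold (the 3 smallest adjusted p per comparison, or the 2 smallest p where none passed) and for the highest member of each role, and any other member was chosen after its values were seen. No 2 columns were identical and 0 other sample columns were present. Alternatives were another pseudocount (0.1), no filter or a mean of at least 2 FPKM, median-ratio size factors, array weights, a replicate block, a fit of only the groups compared, leaving out 3 skin-rich tumours, and leaving out each tumour of the groups compared in turn. With 3 tumours against 3, an exact permutation test cannot go below 0.1, so none was used for single genes.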

Additional observations from a re-analysis of the deposited data

How the results depend on the processing

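Counts of members past the threshold are given here as counts. Fold changes were followed for members past the threshold, or the 2 smallest p where none passed, and for Cad in the antibody comparisons. Of these, 0 changed direction under any alternative. Other members did change direction. For RFA against cryoablation, 4 members were above 0 with all tumours and 15 without replicate 3 of RFA alone. With no filter on low values, 3 members instead of 6 passed for the mean anti-PD-1 effect and 1 instead of 5 for any difference among the 6 groups, where more genes were tested. Array weights, whose estimation stopped before it converged, gave 9 members for CTT against cryoablation, 15 for CTT against RFA and 3 for RFA against cryoablation. With the antibody they gave 7 for CTT against cryoablation and 1 for CTT against RFA. For adding the antibody they gave 4 after cryoablation, 0 after RFA and 11 after CTT. They gave 1 for the antibody effect after CTT minus that after cryoablation, 2 for that minus the effect after RFA, 10 for the mean antibody effect, 17 for CTT against the mean of the other ablations and 30 for any difference, and the cause was not tested. Leaving out the 3 skin-rich tumours left only replicate 3 in cryoablation plus anti-PD-1. Fewer members then passed for the antibody after RFA, for its mean effect and for any difference. A fit of only the groups compared gave 1 for the antibody after cryoablation and 0 after RFA. The replicate block gave 0 members for the antibody after RFA and moved no other count by more than 1.5 times. Same-numbered tumours did not deviate together throughout any comparison: 9 of 27 pairs had a correlation over 0.1 (range -0.44 to 0.59), and in 0 of 9 comparisons did all of them. The 2 highest were between CTT plus anti-PD-1 and RFA plus anti-PD-1, at 0.50 for replicate 1 and 0.59 for replicate 3, with replicate 2 at 0.06. The numbers were not used to pair tumours in the main fit.

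Leaving out each tumour in turn gave 0 to 2 members for CTT against cryoablation, 0 to 1 for CTT against RFA, 0 to 0 for the antibody after RFA, 3 to 11 for its mean effect, 0 to 6 for CTT against the mean of the other ablations and 1 to 7 for any difference. For any difference the count was 1 without cryoablation replicate 1 or 3 or CTT plus anti-PD-1 replicate 2 or 3, 2 without cryoablation replicate 2 and 3 without RFA plus anti-PD-1 replicate 2. In the other 9 comparisons the count was 0 each time. The absolute depth behind each FPKM value is unknown.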
